A study of Mus musculus with 6 samples.

Results

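Cytosolic fatty acid synthesis was followed through 10 genes, Acly, Acss2, Acaca, Acacb, Fasn, Me1, Thrsp, Elovl6, Scd1 and Scd2, out of 33184 genes in a table of RNA-seq levels from diabetic mouse skin wounds. The genes were picked by name as genes of the pathway. The list was, however, selected on earlier results of these same libraries, with the difference between the groups in FPKM already known. Their levels in the groups are therefore given as a description, with no test. Levels are in FPKM, fragments scaled to gene length and to library size. A comparison between genes depends on the gene lengths used. Libraries were not equal in summed FPKM either, at 358452 to 441746, and rescaled fits are given below.

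The wounds came from db/db mice, a diabetic strain that lacks a working leptin receptor and is obese. A round wound 6 mm across, through epidermis and dermis, was made in each mouse. Control siRNA (NC, 3 libraries) or siRNA against SFRP2 (SFRP2-siRNA, 3 libraries) was injected around the wound at 1 day post-injury, and whole wound tissue was frozen at dpi4. The question behind the comparison was how loss of SFRP2, a secreted Wnt modulator, alters the transcriptome of a diabetic wound at the early inflammatory phase. All mice were db/db, all carried a wound and all received an siRNA, so that no unwounded, uninjected or non-diabetic tissue enters the comparison. The titles of the samples carry day 3 where the protocol gives dpi4. The titles of the other group are numbered siRNA-1 to siRNA-3, and the study also used 3 siRNAs against SFRP2 under the same names, so that a difference between siRNAs and a difference between animals cannot be told apart. The titles give each library a wound number of its own, but nothing in the labels says that the 3 wounds of a group came from separate animals. The p-values below then measure only the spread between these wounds, which may not be a spread between animals.

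The RNA of the targeted gene did not go the way of the label in these libraries, and protein was not analysed here. Sfrp2 had 11.6, 40.6 and 14.1 FPKM in NC 1 to NC 3 and 50.6, 54.6 and 55.2 FPKM in SFRP2-siRNA 1 to SFRP2-siRNA 3. It was higher in every library labelled SFRP2-siRNA than in any NC library, and the log2 fold change was 1.45 (SE 0.43, limma adjusted p = 0.518). The groups are therefore called by their labels throughout. Depth was even, at 42925444 to 47117132 reads per library, recovered from the FPKM values. SFRP2-siRNA 1 stood apart from the other 5 libraries in its hair follicle keratins and related markers, which summed to 0.726% of the NC mean there and to between 69.2% and 137.8% in the others. Some counts and values that this library decides are also given without it, but the correlations are not.

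De novo lipogenesis turns surplus carbohydrate into fat. Citrate leaves the mitochondrion and is split to acetyl-CoA, carboxylases turn acetyl-CoA into malonyl-CoA, fatty acid synthase builds palmitate from both with NADPH as the reductant, and elongases and desaturases finish the chain. In skin the pathway runs in the adipocytes under the dermis, in sebaceous glands and to a lesser degree in the epidermis, and its genes are classical targets of the transcription factors SREBP-1c and ChREBP, the products of Srebf1 and Mlxipl.

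The sequences just upstream of the genes were not used in choosing them, and 3 are shown because these genes had the widest and the narrowest group differences. Promoter windows of 300 bases, 250 before and 50 after the start of the gene, were taken from RefSeq on GRCm38.p6 and were found for 8 of the 10 genes. Scd1 and Scd2 had no entry. Fasn (chr11:120824498-120824797, minus strand) and Thrsp (chr7:97417501-97417800, minus strand) were the genes with the most negative log2 fold changes, and Elovl6 (chr3:129532136-129532435, plus strand) was the gene nearest to 0. Capitals mark CCAAT, the letters bound by the NF-Y complex, read on either strand, so that ATTGG is the same motif on the other strand, and each window is written 5' to 3' along its gene.
Fasn: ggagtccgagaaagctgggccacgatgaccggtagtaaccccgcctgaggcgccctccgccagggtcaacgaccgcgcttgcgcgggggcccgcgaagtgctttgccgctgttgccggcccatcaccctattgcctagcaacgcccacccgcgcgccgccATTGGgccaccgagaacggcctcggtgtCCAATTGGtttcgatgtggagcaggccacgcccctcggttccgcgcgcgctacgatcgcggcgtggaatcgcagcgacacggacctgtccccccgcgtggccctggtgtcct
Thrsp: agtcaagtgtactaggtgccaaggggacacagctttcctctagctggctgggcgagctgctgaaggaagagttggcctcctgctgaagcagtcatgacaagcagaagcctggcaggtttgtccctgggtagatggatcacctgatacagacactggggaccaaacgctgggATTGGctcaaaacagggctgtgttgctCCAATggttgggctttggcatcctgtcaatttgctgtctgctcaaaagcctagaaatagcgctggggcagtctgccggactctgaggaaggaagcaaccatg
Elovl6: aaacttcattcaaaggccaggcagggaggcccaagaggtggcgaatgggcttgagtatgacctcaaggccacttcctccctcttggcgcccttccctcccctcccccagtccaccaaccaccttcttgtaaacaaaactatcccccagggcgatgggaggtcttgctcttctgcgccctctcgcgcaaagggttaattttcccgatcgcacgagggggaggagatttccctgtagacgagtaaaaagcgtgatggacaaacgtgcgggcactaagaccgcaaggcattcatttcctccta

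CCAAT occurred 3 times in the Fasn window, first at 90 bases before the start on the minus side of the gene, then at 62 bases on the plus side and at 59 bases on the minus side. The last 2 of these overlap in the run CCAATTGG. In Thrsp it occurred at 79 and 52 bases before the start. No CCAAT was found in the Elovl6 or the Acaca window. In all, 6 of the 8 genes with a window held CCAAT (Acly, Acss2, Acacb, Fasn, Me1 and Thrsp), against 41.1% of the 27025 genes with a window. A gene with several windows counts once if any of them holds the letters, and all genes here means these 27025. For Me1 the letters lay in 1 of its 2 windows. The GC-box letters GGGCGG, bound by Sp1, were present in 3 of 8 (Acly, Me1 and Acss2) against 38.2% of all genes. The palindromic E-box CACGTG was in none of the 8 windows (8.09% of all genes), nor was the sterol regulatory element in the form TCACNCCAC (1.44%). The looser E-box CANNTG, which takes in CACGTG, was in 5 of 8 against 75.0% of all genes. All motifs were searched on both strands. A match here is a description of letters, not of a bound site, and no match says only that these letters are not in this window.

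Acly (ENSMUSG00000020917), ATP citrate lyase, splits exported citrate into the acetyl-CoA that feeds the pathway. Its level was 271.7, 297.7 and 170.0 FPKM in NC 1 to NC 3 and 81.2, 61.2 and 69.2 FPKM in SFRP2-siRNA 1 to 3. Every library labelled SFRP2-siRNA lay well below the lowest NC library, NC 3. Group means of 246.5 ± 67.5 and 70.5 ± 10.1 FPKM (SD, n = 3 per group) gave a log2 fold change of -1.76 (SE 0.26) on the scale of log2(FPKM + 1). Acss2 (ENSMUSG00000027605) makes the same product from acetate in the cytosol and had the lowest FPKM of the 10 genes in every library. It had 15.5, 16.1 and 10.4 FPKM in NC and 5.79, 4.10 and 4.22 FPKM in those labelled SFRP2-siRNA, which is -1.38 (SE 0.21) as a log2 fold change. Both routes to acetyl-CoA were lower without overlap of the groups.

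**Figure D1:**
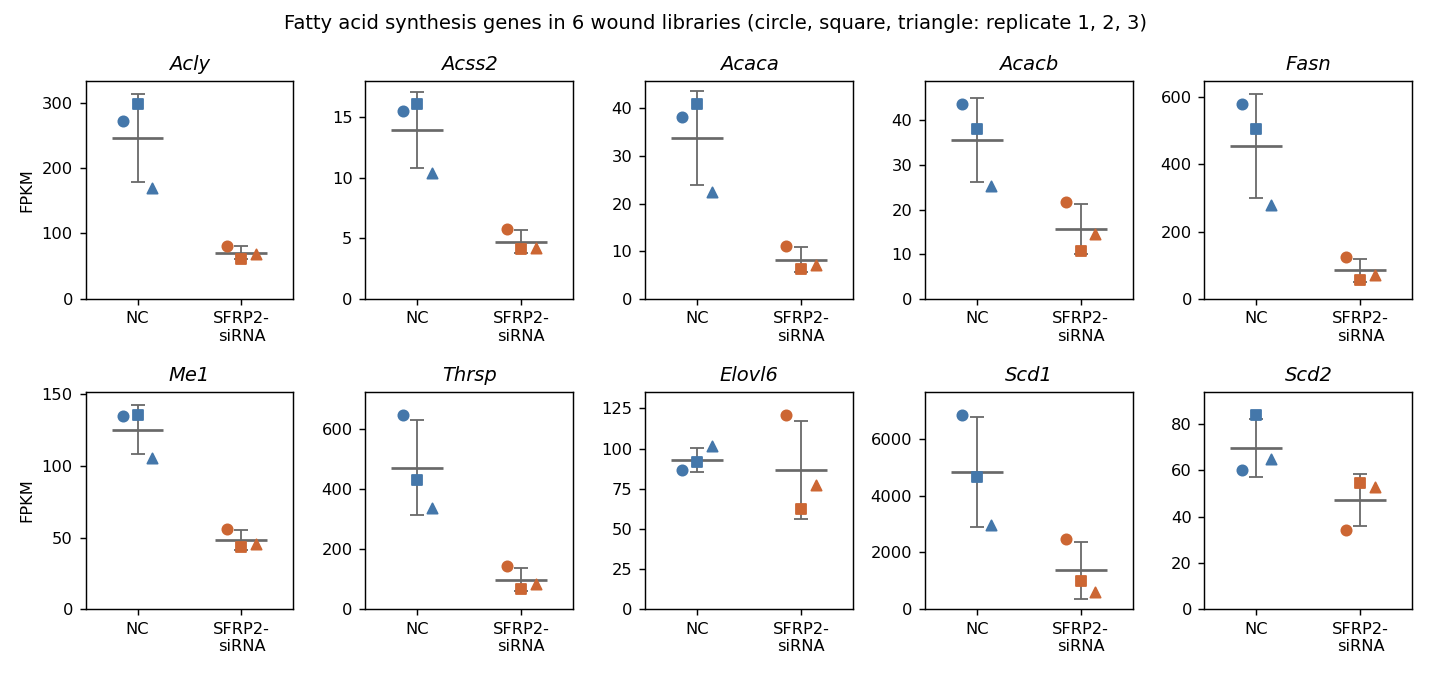
Level of each of the 10 genes in FPKM (vertical axes, linear from 0, a scale for each gene) in the 3 NC and the 3 SFRP2-siRNA libraries. Points are libraries (circle, square and triangle for replicate 1, 2 and 3), horizontal lines group means and error bars SD, and the groups separate for 9 of the 10 genes, Elovl6 being the exception.

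Acaca (ENSMUSG00000020532) and Acacb (ENSMUSG00000042010) encode the acetyl-CoA carboxylases, the committed step of the pathway. The product of Acaca supplies malonyl-CoA for synthesis in the cytosol, and that of Acacb sits at the mitochondrion, where malonyl-CoA restrains the import of fatty acids. Acaca had 38.1, 40.9 and 22.5 FPKM in NC and 11.2, 6.28 and 7.10 FPKM in those labelled SFRP2-siRNA, and the log2 fold change was -1.92 (SE 0.29). Acacb had 43.6, 38.1 and 25.2 FPKM in NC against 21.7, 10.7 and 14.5 FPKM, and the log2 fold change was -1.15 (SE 0.30). Neither gene overlapped between the groups, but the margin for Acacb was small, the highest SFRP2-siRNA library standing at 86.2% of the lowest NC library. The paralogs also differed between the groups in their ratio within a library. The ratio of Acaca to Acacb was 0.875, 1.07 and 0.892 in NC and 0.513, 0.585 and 0.489 in those labelled SFRP2-siRNA. It was thus lower in the other group without overlap. Which paralog had more transcripts cannot be read from it, since it depends on the exon lengths behind FPKM (17074 and 9632 bases). A ratio within a library does not depend on how that library was scaled.

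Acaca is also the gene whose level is least certain. Of all 31-base stretches in its annotated transcripts, 33.4% also occur in another gene, mostly in Gm5182, a processed pseudogene. Gm5182 itself was listed at 15.3, 20.9 and 11.02 FPKM in NC and 5.38, 3.17 and 3.55 FPKM in those labelled SFRP2-siRNA, which is between 0.400 and 0.510 of the Acaca level in every library, and reads could have been split between them. With the reads of both added, the log2 fold change of Acaca was -1.92. Me1 shared 30.0% of its stretches with other genes, but its copies Gm7049 and Gm7329 were listed at no more than 0.505 FPKM. Scd1 and Scd2 shared 8.14% and 6.81% with other Scd genes, and Scd3, the sebaceous gland paralog, was listed at only 0.874 to 2.32 FPKM. Acly, Acacb and Fasn shared none.

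Fasn (ENSMUSG00000025153), the multi-domain synthase that assembles palmitate, had the most negative log2 fold change of the 10 genes. Its level was 579.2, 506.5 and 279.8 FPKM in NC and 124.3, 56.9 and 71.1 FPKM in those labelled SFRP2-siRNA. The highest of the latter, SFRP2-siRNA 1, was at 44.4% of the lowest NC library. Means were 455.2 ± 156.2 and 84.1 ± 35.5 FPKM (SD, n = 3 each), and the log2 fold change was -2.43 (SE 0.39). Fasn was also lower in proportion to Acaca, the ratio of Fasn to Acaca being 15.2, 12.4 and 12.4 in NC and 11.1, 9.07 and 10.01 in the other group.

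Me1 (ENSMUSG00000032418), cytosolic malic enzyme, makes part of the NADPH that Fasn consumes. It had the smallest error of the 10, with 134.3, 135.3 and 105.3 FPKM in NC and 56.1, 43.2 and 45.4 FPKM in those labelled SFRP2-siRNA. The means of 125.0 ± 17.1 and 48.2 ± 6.88 FPKM gave a log2 fold change of -1.36 (SE 0.18). Thrsp (ENSMUSG00000035686), known as Spot 14, is a small nuclear and cytosolic protein of lipogenic tissues that responds to thyroid hormone and carbohydrate. Thrsp had about the same FPKM as Fasn in NC, at 645.0, 428.3 and 337.6 FPKM, and was at 142.7, 68.4 and 85.9 FPKM in those labelled SFRP2-siRNA. Its log2 fold change of -2.25 (SE 0.35) was next to that of Fasn, and of all 10 genes it had the widest gap between the groups, its highest SFRP2-siRNA library being at 42.3% of its lowest NC library.

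Elovl6 (ENSMUSG00000041220), which lengthens palmitate to stearate, did not share this difference. Elovl6 had 86.7, 91.4 and 101.3 FPKM in NC and 120.8, 62.2 and 77.5 FPKM in those labelled SFRP2-siRNA. SFRP2-siRNA 1 was the highest of all 6 libraries and SFRP2-siRNA 2 the lowest, so that the groups overlapped. The log2 fold change was -0.15 (SE 0.26), and it was 0.06 without SFRP2-siRNA 2 and -0.42 without SFRP2-siRNA 1, where the groups no longer overlapped. Set against its supplier, the contrast was wide: the ratio of Fasn to Elovl6 was 6.68, 5.54 and 2.76 in NC and 1.03, 0.915 and 0.917 in the other group.

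Scd1 (ENSMUSG00000037071) and Scd2 (ENSMUSG00000025203) encode stearoyl-CoA desaturases, which put a double bond into stearate and palmitate. Scd1 is the main form of adipose tissue and sebaceous gland, and Scd2 is broader and strong in brain and in developing skin. Scd1 was by far the most abundant of the 10 genes, with 6830, 4659 and 2980 FPKM in NC and 2488, 1009 and 607.1 FPKM in those labelled SFRP2-siRNA. The groups did not overlap, but they came close, the highest SFRP2-siRNA library being at 83.5% of the lowest NC library, and the log2 fold change of -1.99 carried the largest error of the 10 (SE 0.59). Scd2 had 60.1, 83.7 and 64.8 FPKM in NC against 34.1, 54.6 and 52.6 FPKM, which is -0.57 (SE 0.23) as a log2 fold change. The separation of Scd2 was the narrowest of those found, with the highest SFRP2-siRNA library at 90.8% of the lowest NC library, and it was lost when libraries were rescaled to equal sums of FPKM. The ratio of Scd1 to Scd2 was 113.6, 55.6 and 46.0 in NC and 72.9, 18.5 and 11.5 in the other group, which overlapped because of SFRP2-siRNA 1.

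**Figure D2:**
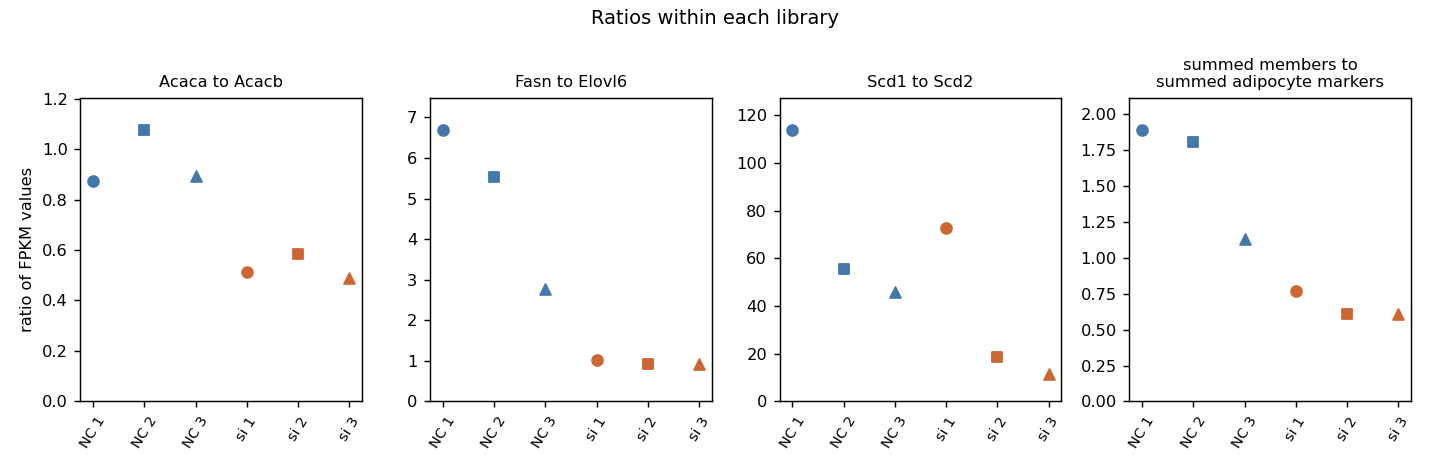
Ratios of FPKM values within each of the 6 libraries (horizontal axis, NC 1 to 3 and si 1 to 3 for SFRP2-siRNA 1 to 3, vertical axes linear from 0, each panel with its own scale). Acaca to Acacb, Fasn to Elovl6 and the summed 10 genes to the summed adipocyte markers were lower in all 3 libraries labelled SFRP2-siRNA than in any NC library, whereas Scd1 to Scd2 overlapped.

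Counted together, 9 of the 10 genes were lower in all 3 libraries labelled SFRP2-siRNA than in any NC library. Among the 16005 genes whose mean reached 0.5 FPKM, 3.92% were lower in this way and 13.9% were higher. All 10 genes passed that filter. Their median log2 fold change was -1.57, beside a median of 0.13 over all genes. Log2 fold changes under -1 were found in 8 of the 10 genes and in 1.16% of all genes. Since the genes were chosen with this contrast known, nothing is read from these counts. Without SFRP2-siRNA 1, 10 of 10 genes were separate and lower and the median was -1.69. Over all genes 7.95% were then lower without overlap and 23.7% higher. Median-of-ratios scaling brought the median of all genes to 0.005 and changed the split over all genes to 1227 lower and 886 higher, from 628 and 2226, and left 9 of the 10 genes separate. No gene of the whole table was called at an adjusted p under 0.05 with an absolute log2 fold change above 1 (limma on log2(FPKM + 1), Benjamini-Hochberg, 0% in either direction), with a smallest adjusted p of 0.518. At an unadjusted p under 0.05, 2.86% of genes were lower and 6.72% higher.

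The 10 genes made up a visible share of the wound transcriptome. Their summed FPKM was 8704, 6297 and 4097 in NC and 3086, 1376 and 1035 in those labelled SFRP2-siRNA, or 1.61 ± 0.44% and 0.505 ± 0.31% of all FPKM (SD, n = 3 each). Scd1 supplied between 58.7% and 80.6% of that sum. Without Scd1 the sums were 1543 ± 387.5 and 464.4 ± 119.5 FPKM. The order of the FPKM values was stable at its ends, Scd1 being the highest and Acss2 the lowest in all 6 libraries. This order also depends on the exon lengths behind FPKM, 4892 bases for Scd1 and 10163 for Acss2. In NC the next places went to Thrsp and Fasn, then Acly, Me1, Elovl6 and Scd2. In SFRP2-siRNA 2 and SFRP2-siRNA 3, Elovl6 stood above Fasn. Within NC, Fasn and Thrsp had means less than 1 SD apart, as did Acaca and Acacb. In the other group the means of Thrsp, Elovl6, Fasn and Acly, from 99.0 ± 38.9 down to 70.5 ± 10.1 FPKM, lay within 1 SD of Thrsp, and those of Me1 and Scd2 were 48.2 and 47.1 FPKM.

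Most of the genes also varied together within the groups. NC 3 was the lowest NC library for 8 of the 10 genes, Elovl6 and Scd2 having theirs in NC 1. SFRP2-siRNA 1 was the highest of its group for 9 of 10, and SFRP2-siRNA 2 was the lowest for 8. After group means were subtracted, all 45 pairs of the 10 genes had a median Pearson r of 0.82 (-0.78 to 1.00) over the 6 libraries. The 28 pairs among the 8 genes other than Elovl6 and Scd2 had a median r of 0.92 (0.62 to 1.00). Elovl6 had a median r of 0.52 with the 8 genes, and Scd2 had -0.49. These correlations rest on 6 points that share their library, scaling and tissue piece, with the group means taken out. The correlations are given as a description, with no pairs of other genes set beside them. Scd2 was thus the only one of the 10 that was lowest where the rest of its group's values were highest, in SFRP2-siRNA 1.

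**Figure D3:**
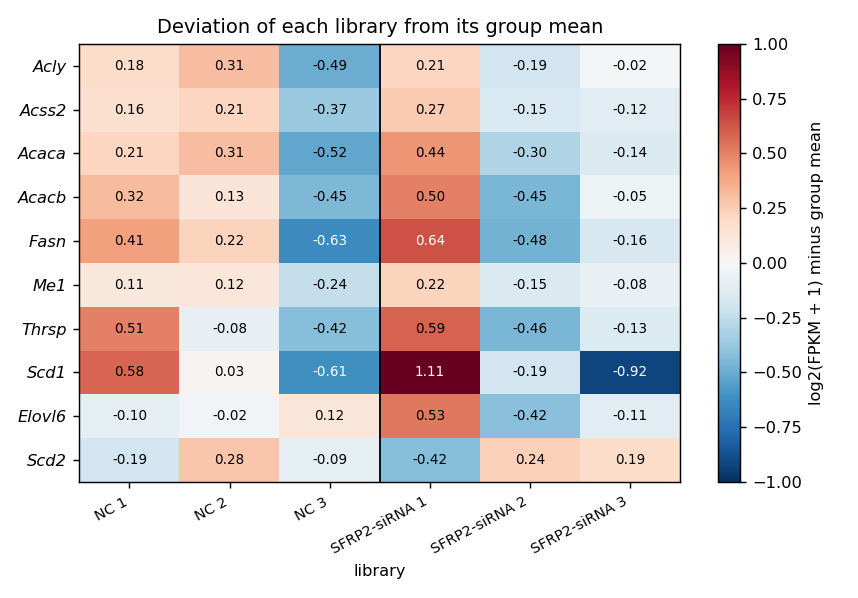
Deviation of each library (columns) from the mean of its own group, in log2(FPKM + 1), for the 10 genes (rows), with the value printed in each cell, red above and blue below the group mean. Most genes were low in NC 3 and high in SFRP2-siRNA 1, Scd1 reaching 1.11 in the latter, whereas Scd2 was at -0.42 there.

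Wound tissue is a mixture, and in bulk samples fewer cells of a type and less RNA per cell cannot be told apart. The markers of the cell types that run lipogenesis were therefore read beside the 10 genes. The 18 adipocyte markers summed to between 3481 and 4613 FPKM in NC and between 1698 and 4021 FPKM in those labelled SFRP2-siRNA, with none listed at 0. Their median log2 fold change was -0.50, and 3 of 18 were lower without overlap, namely Adrb3, Gpd1 and Slc2a4, the β3-adrenergic receptor, glycerol-3-phosphate dehydrogenase and the insulin-sensitive glucose transporter. Over all genes 3.92% were lower in this way. The count rests on SFRP2-siRNA 1: without it 16 of 18 adipocyte markers were lower without overlap, beside 7.95% of all genes, and their median was -0.73. Fabp4, the fatty acid carrier of adipocytes, overlapped between the groups with a log2 fold change of -0.65 (SE 0.44), which was -1.08 without SFRP2-siRNA 1. Adipoq, which encodes adiponectin, had 196.5, 218.5 and 268.3 FPKM in NC and 287.5, 185.3 and 131.9 FPKM in the other group.

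In SFRP2-siRNA 1 the lipogenic genes were low while most adipocyte markers were not. Its adipocyte markers summed to 102.9% of the NC mean, and 15 of the 18 were within or above the NC range. Of the 10 lipogenic genes only Elovl6 was within or above the NC range there, and the 8 genes other than Elovl6 and Scd2 were at 27.3% to 61.1% of their NC means. In SFRP2-siRNA 2 and SFRP2-siRNA 3 the adipocyte markers were also low, at 57.8% and 43.5% of the NC mean, with 2 and 1 of 18 within the NC range. The summed 10 genes divided by the summed adipocyte markers gave 1.89, 1.81 and 1.13 in NC and 0.767, 0.609 and 0.609 in those labelled SFRP2-siRNA. The mean log2 difference of that ratio was -1.25, and it was -1.36 without SFRP2-siRNA 1.

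Brown fat markers were low in the same libraries as the 10 genes. The 8 markers summed to 2115, 1155 and 677.9 FPKM in NC and 412.8, 178.1 and 158.3 FPKM in the other group, with a median log2 fold change of -0.98, and 4 were lower (3.92% of all genes) and 1 higher (13.9% of all genes) without overlap. The higher one was Zic1, a transcription factor of brown fat precursors, with a log2 fold change of 0.33 (SE 0.15), and under median-of-ratios scaling 0 of the 8 were higher in this way. Without SFRP2-siRNA 1, 6 of the 8 were lower without overlap, beside 7.95% of all genes. Ucp1, the uncoupling protein of thermogenic fat, had 1061, 615.4 and 314.5 FPKM in NC and 156.6, 39.9 and 19.1 FPKM in those labelled SFRP2-siRNA. Cidea, a lipid droplet protein, and Cox8b, a cytochrome oxidase subunit, were also separate, with log2 fold changes of -2.23 (SE 0.54) and -1.51 (SE 0.42). Relative to these markers the 10 genes were higher in the other group without overlap. The ratio of the sums was 4.12, 5.45 and 6.04 in NC and 7.48, 7.73 and 6.54 in the other group. The part of brown fat content in the levels of the lipogenic genes was not tested.

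Sebaceous and epidermal markers overlapped between the groups. The 9 sebaceous gland markers had a median log2 fold change of 0.14, and none was separate between the groups. Without SFRP2-siRNA 1 the median was -0.12 and 1 of 9 was lower without overlap, beside 7.95% of all genes. Krt79, a keratin of the sebaceous duct and the most abundant of the list, had 86.1, 238.6 and 234.5 FPKM in NC and 75.6, 123.1 and 91.4 FPKM in the other group, and the log2 fold change was -0.83 (SE 0.43). All 3 were below NC 2 and NC 3, but NC 1 lay among them. For Mgst1 and Fa2h, which came next, it was -0.09 (SE 0.22) and 0.09 (SE 0.29). The 10 keratinocyte markers summed to 74.4% to 129.9% of the NC mean in NC and 71.5% to 133.6% in those labelled SFRP2-siRNA, and none was separate. Markers of macrophages and fibroblasts went the other way. The 13 macrophage markers summed to between 1110 and 1792 FPKM in NC and between 1996 and 2679 FPKM, with 6 of 13 separate and higher, and 7 of 9 fibroblast markers were separate and higher, beside 13.9% of all genes. Under median-of-ratios scaling these counts were 2 of 13 and 3 of 9, beside 5.54% of all genes. None of the 11 skeletal muscle markers was separate, but 7 were higher without overlap when SFRP2-siRNA 1 was left out (23.7% of all genes), and their sum was at 252.8% of the NC mean in SFRP2-siRNA 3. The part of these cells in the levels of the 10 genes was not tested.

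**Figure D4:**
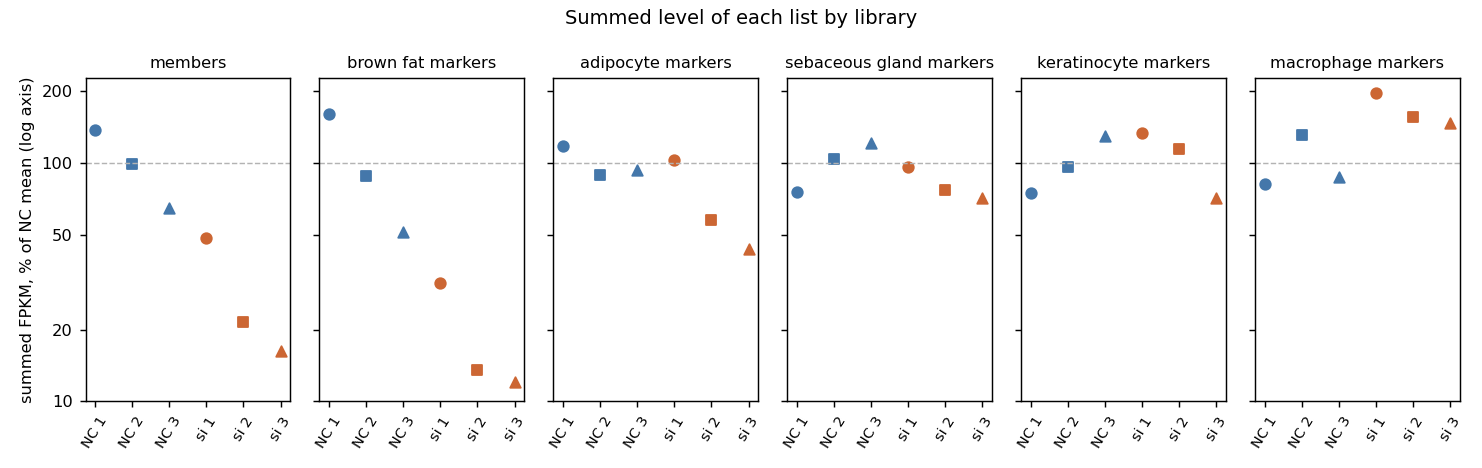
Summed FPKM of the 10 lipogenic genes and of 5 marker lists in each library, as a percent of the NC mean (vertical axis, logarithmic, dashed line at 100%), with si 1 to 3 standing for SFRP2-siRNA 1 to 3. In SFRP2-siRNA 1 the adipocyte markers were at 102.9% while the 10 genes were at 48.5% and the brown fat markers at 31.4%.

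The steps around the core pathway were read from 7 lists of other genes, 94 in all, of which 93 were in the table and 90 passed the filter. None of the 90 was called, and the smallest adjusted p was 0.518 (limma). These lists were also chosen with earlier results of these data known. Their counts, here and list by list below, are therefore a description, and nothing is read from them. The counts of the marker lists above carry the same limit. At an unadjusted p under 0.05, 15 were lower (16.7%, against 2.86% of all genes) and 3 were higher (3.33%, against 6.72%). Groups did not overlap for 19 lower genes (21.1%, against 3.92% of all genes) and 4 higher genes (4.44%, against 13.9%). Without SFRP2-siRNA 1 these were 34 and 8 (37.8% and 8.89%, against 7.95% and 23.7% of all genes).

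Supply of citrate and NADPH had 4 of 9 genes lower and 1 higher at the unadjusted threshold, with a median of -0.16. Slc25a1, the mitochondrial citrate carrier, had 150.3, 120.8 and 106.5 FPKM in NC and 69.5, 62.0 and 62.0 FPKM in those labelled SFRP2-siRNA. All SFRP2-siRNA libraries lay below all NC libraries, and the log2 fold change was -0.94 (SE 0.18, adjusted p = 0.518). Mdh1, cytosolic malate dehydrogenase, and G6pdx, the entry enzyme of the pentose phosphate pathway, had log2 fold changes of -0.52 (SE 0.15) and -0.45 (SE 0.16).

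Triglyceride assembly, which stores the product, had 4 of 15 genes lower and 1 higher, with a median of -0.26. Agpat2, the acyltransferase of adipocytes that makes phosphatidic acid, had 225.4, 150.8 and 112.2 FPKM in NC and 73.7, 53.2 and 39.5 FPKM in the other group. Its log2 fold change of -1.52 (SE 0.33) was the most negative of the 90. Lpin1, a phosphatidate phosphatase, and Dgat2, which adds the last acyl chain, had log2 fold changes of -0.78 (SE 0.18) and -0.72 (SE 0.22), both without overlap.

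Among the 21 lipogenic regulators, 2 were lower and none higher at the unadjusted threshold, with a median of -0.05. Mlxipl, which encodes ChREBP, had 31.1, 25.8 and 16.5 FPKM in NC and 12.01, 7.56 and 8.92 FPKM in those labelled SFRP2-siRNA. The groups did not overlap, NC 3 again being the lowest of NC, and the log2 fold change was -1.26 (SE 0.27, adjusted p = 0.518). Srebf1, which encodes SREBP-1, had 32.6, 40.0 and 33.4 FPKM against 29.8, 26.0 and 26.3 FPKM. It too was separate, but the difference was small, and the log2 fold change was -0.35 (SE 0.14). Pparg, the adipocyte master regulator, overlapped between the groups and had a log2 fold change of -0.83 (SE 0.36, adjusted p = 0.520). It had 45.5, 30.8 and 30.3 FPKM in NC and 33.9, 15.6 and 13.1 FPKM in the other group. The overlap came from SFRP2-siRNA 1, and without that library the log2 fold change was -1.23.

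Mitochondrial fatty acid synthesis, a separate pathway that makes the precursor of lipoic acid, had 3 of 8 genes lower and none higher, with a median of -0.19. The 3 were Mecr, Acsf3 and Ndufab1, the enoyl reductase, the mitochondrial malonyl-CoA synthetase and the acyl carrier protein, with log2 fold changes of -1.02, -0.92 and -0.58.

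The remaining lists held few differences. Of the 14 other elongases and desaturases that passed the filter, 1 was lower, Fads3 (-0.44, SE 0.17), and the median was 0.03. Elovl5, the elongase of polyunsaturated fatty acids, and Fads1, the Δ5 desaturase, both had a log2 fold change of 0.17. Cholesterol synthesis, which is governed by the related factor SREBP-2, had a median of 0.05 over 20 genes with 1 lower, Sc5d, a late sterol desaturase (-0.41, SE 0.13). Among the genes of malonyl-CoA use and removal, Cpt1a, the malonyl-CoA-sensitive gate of fatty acid oxidation, had a log2 fold change of 0.31 (SE 0.20), and Mlycd, which degrades malonyl-CoA, had -0.32 (SE 0.16). Cpt1c, a form of neurons, was higher at the unadjusted threshold, at 1.51 ± 0.12 and 2.19 ± 0.29 FPKM (SD, n = 3 each).

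**Figure D5:**
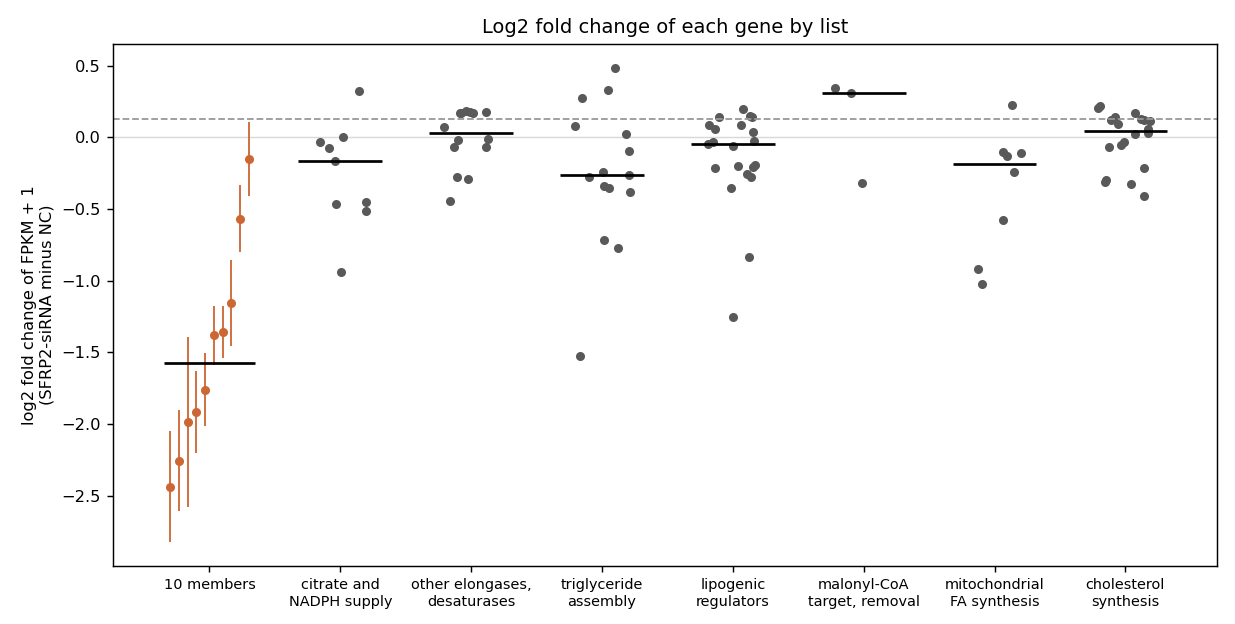
Log2 fold change of FPKM + 1, SFRP2-siRNA minus NC (vertical axis), of the 10 lipogenic genes (left, with SE) and of the genes in 7 lists of neighbouring pathways (points). Black bars are list medians and the dashed line the median of all genes at 0.13. The median of the 10 genes was -1.57 whereas those of the other lists lay between -0.26 and 0.31.

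The genes whose levels followed the 10 most closely were sought among 8100 others with a mean of at least 5 FPKM, by Pearson r with the mean standardised log2 level of the 10 over the 6 libraries. The first 8 were Pald1 (0.991), Gm5182 (0.990), Chdh (0.987), Pygl (0.986), Gpd2 (0.984), Sdha (0.983), Zadh2 (0.983) and Opa1 (0.983). Among them Pygl encodes the liver form of glycogen phosphorylase, Gpd2 the mitochondrial glycerol-3-phosphate dehydrogenase, Sdha a subunit of succinate dehydrogenase and Opa1 a fusion factor of the inner mitochondrial membrane, while Gm5182 is the copy of Acaca described above. All 8 were lower without overlap, as were 3.92% of all genes. Gpd2 had a log2 fold change of -1.86 (SE 0.40) and Pygl of -1.53 (SE 0.26). The group difference is part of this likeness. Genes ranked by r with the 10 over both groups have to carry it, so nothing is read from the count. Of the listed regulators Mlxipl came nearest, in place 12 with r of 0.980. After group means were subtracted, the nearest were Gypc (0.992), Rhoc (0.990), Glo1 (0.990), Ergic1 (0.988) and Rpl34-ps1 (0.987). Gypc, Glo1 and Ergic1 overlapped between the groups. Rhoc and Rpl34-ps1 were higher without overlap, as were 13.9% of all genes, with log2 fold changes of 0.29 (SE 0.15) and 0.47 (SE 0.17).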

How the data were processed

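Total RNA from 6 wounds was sequenced as paired-end mRNA libraries. Per the labels' processing notes, reads were aligned with HISAT2 and counted with featureCounts of Subread, and the authors deposited a table of FPKM per Ensembl gene, of which 32582 of 33184 were matched to a symbol. Tool versions, the genome build and the annotation are not given in the sources used here. The deposited values are FPKM and not counts. The count test of the study (DESeq2) was not run, nor was it run on the reads recovered below. From the deposited FPKM, log2(FPKM + 1) was fitted in R 4.3.3 with limma 3.58.1 (moderated by eBayes with a trend on level, and with group as the only term) over the 16005 genes whose mean reached 0.5 FPKM, two-sided, with Benjamini-Hochberg adjustment over all of them. Genes were called at an adjusted p under 0.05 and an absolute log2 fold change above 1, the thresholds of the study. The fit was tested on simulated data.

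Depth was recovered from the steps between low values and GENCODE vM21 exon lengths, with 98.6% to 98.9% of low values whole within 0.02 of a read. Those reads entered a voom fit, added after seeing the data, which called 0 genes. Marker lists were also recounted without each library and under median-of-ratios scaling, both added after seeing the data.

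The 10 genes, the pathway and marker lists, and the tests were chosen with earlier results of these data known. The text names all 10 genes, the 3 genes of each pathway list with the smallest unadjusted p, abundant genes of the marker lists, the 8 and 5 nearest genes by r, and Sfrp2. Some further list genes (Adrb3, Slc2a4, Adipoq and Zic1) were named after their values were seen.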

Additional observations from a re-analysis of the deposited data

How the results depend on the processing

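The 10 lipogenic genes were refitted under 17 alternatives, and their median log2 fold change ranged from -1.79 to -1.42. Separate groups were found for 9 genes, but for 8 with equal sums of FPKM and for 10 without SFRP2-siRNA replicate 1. Elovl6 alone changed sign, to 0.06 without SFRP2-siRNA replicate 2. No alternative called a gene, and the smallest adjusted p was 0.119, with estimated sample weights. Fitting the replicate number as a block left the median at -1.57, 9 genes separate, 15 pathway genes lower and 0 called, although the numbers did not pair the libraries (correlations of -0.05, -0.15 and 0.38 between the deviations of same-numbered libraries from group means).

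The share of all genes that were lower without overlap was 3.92%, rising to 7.67% under median-of-ratios scaling, 6.37% under quantile normalization and 5.50% to 7.95% with a library left out, where fewer libraries have to separate. Pathway genes lower at an unadjusted p under 0.05 numbered 15, but 8 with equal sums, 24 under median-of-ratios scaling or with estimated sample weights, and 7 to 18 with a library left out (8 and 7 without SFRP2-siRNA replicates 2 and 3). The 3 higher ones became 0 where equal sums were set without abundant genes, 0 under median-of-ratios, 1 under quantile normalization and 0 to 4 with a library left out (0 without NC replicate 1 or 3, 1 without SFRP2-siRNA replicate 2). The ratio of the 10 genes to adipocyte markers had a log2 difference of -1.25 (-1.49 to -1.12 with a library left out). Against keratinocyte markers it was -1.97, and against brown fat markers it was 0.49, with the other sign. Windows with an E-box were 0 for CACGTG and 5 for CANNTG. The cause of these shifts was not tested.

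Of 1002 refits of 59 other named genes, 25 changed sign, in 9 genes that had small differences (Car3, Fa2h, Glo1, Krt5, Krt14 and Mgst1) or in hair keratins without SFRP2-siRNA replicate 1 (Krt25, Krt27 and Krt71). FPKM carries no counting error, but no lipogenic gene had fewer than 1888 recovered reads in a library.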
